A study of Mus musculus with 2 samples.

Results

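The 90 genes described here encode the proteins of the cytosolic ribosome, as measured in single CD8 T cells of the inflamed mouse colon. They were chosen by name alone: every gene of the count table whose symbol starts with Rps or Rpl and a digit, together with Rpsa, Rplp0, Rplp1 and Rplp2, and without the 8 Rps6k kinases, which share the prefix and no function with them. This gave 90 of the 12798 genes in the table. By role, 31 encode small subunit proteins, 43 large subunit proteins and 3 the stalk, which makes 77 subunit genes. A further 6 are paralogs (Rpl22l1, Rps27l, Rpl7l1, Rpl36al, Rpl39l and Rps27rt), 6 carry a pseudogene name, and 1, Rps19bp1, encodes a protein that binds a subunit and is not part of the ribosome. Fau and Rack1 encode ribosomal proteins too, but their symbols fall outside the rule, and their values are given apart.

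The small subunit of the ribosome reads the mRNA and the large subunit joins the amino acids, while the stalk of the large subunit recruits the elongation factors. Each ribosome carries its proteins in nearly equal numbers, so their genes are transcribed and translated as a set. Their mRNAs begin with a tract of pyrimidines, the 5′ terminal oligopyrimidine (TOP) motif, through which mTORC1, the growth kinase, sets their translation when nutrients and antigen signals are present. T cells that leave quiescence raise ribosome production, and naive and memory-type T cells are known for a large share of ribosomal protein mRNA among a small total of RNA.

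Colitis had been induced by T cell transfer. Rag1 KO hosts, which lack T and B cells of their own, received wildtype naive CD4 T cells (CD4+CD45RBhighCD25-) together with splenic TCRb+CD8b+CD4- T cells of donors that were either Bcl6fl/fl Cd8aCre or Bcl6fl/fl, and colon lamina propria CD8 T cells were taken 6 to 10 weeks later. The labels give an age of 8 to 12 weeks at the start of transfer. In both donor genotypes loxP sites flank part of Bcl6, a transcriptional repressor of T cell differentiation, and only the first carries Cre, driven by Cd8a control elements; the wildtype CD4 cells were the same in both. The cells bore 8 hashtag antibodies and were captured as 1 library. The annotation names 4 hashtags Cren and 4 Crep, read here as donors without and with Cre, a reading that no source spells out. The labels do not tie a hashtag to its own animal. What the p-values measure is therefore hashtag-to-hashtag spread, possibly only technical.

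The table held 8562 cells and 25614763 UMIs, with 2635241 to 4201265 UMIs and 900 to 1305 cells per hashtag, and no cell barcode occurred more than once. Bcl6, the targeted gene, was at 16.6, 17.4, 15.6 and 20.7 CPM in the hashtags labelled Cren 1 to 4 and at 31.9, 30.6, 30.9 and 24.3 CPM in those labelled Crep. Its counts were thus higher in every hashtag of the group read as carrying Cre (log2 fold change 0.75, SE 0.138, edgeR adjusted p = 0.0293), against the direction of a deletion. The sources used here do not say which exons were flanked, and a count made from the 5′ end of the transcript need not lie in them, so this count checks neither reading; every direction below refers to the labels Cren and Crep. The 5 CD8 T cell markers (Cd3d, Cd3e, Trac, Cd8a and Cd8b1) summed to 4016 to 5110 raw CPM per hashtag, CD4 T cell markers to 3.41 to 15.8, and 4 of 6 B and plasma cell markers were not in the table. Myeloid markers summed to 238 to 291 and gamma-delta T cell markers to 47.4 to 165. Markers of NK cells and innate lymphoid cells summed to 630 to 1363, of which Il7r alone gave 569 to 1314. The source of these counts was not tested. The hashtag labelled Cren 4 stood apart for the ribosomal protein genes, and results that rest on it are given with and without it.

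The 5′ ends of the transcripts are shown because the kit counts molecules there and because the TOP motif lies there. RefSeq transcript starts (GRCm38.p6) were at hand for 57 of the 77 subunit genes, with 67 starts in all. The runs below go from 10 bases before the annotated start to 20 bases from it onward, on the transcript strand, and the longest run of C and T is in capitals. The first 3 belong to the genes with a tested difference (Rps26 at chr10:128626487-128626516, minus strand; Rps27 at chr3:90213629-90213658, minus strand; Rps24 at chr14:24490668-24490697, plus strand), Rpl28, Rpl35 and Rpl15 were among those with low p-values over all cells, and Rps25, Rpl5 and Rps15 took a raised part of the ribosomal protein UMIs in the smallest cluster.
Rps26: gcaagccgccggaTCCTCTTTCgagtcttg
Rps27: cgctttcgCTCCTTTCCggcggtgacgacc
Rps24: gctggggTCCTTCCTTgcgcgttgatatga
Rpl28: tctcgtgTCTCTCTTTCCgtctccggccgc
Rpl35: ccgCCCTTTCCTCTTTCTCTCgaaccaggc
Rpl15: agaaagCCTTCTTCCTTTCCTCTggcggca
Rps25: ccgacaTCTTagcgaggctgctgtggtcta
Rpl5: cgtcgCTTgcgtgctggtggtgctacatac
Rps15: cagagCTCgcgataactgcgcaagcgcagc
RefSeq lists a second start for Rps24, at chr14:24490743-24490772 for the same window, with a longest run of 7; the first is shown. At the starts shown, the run of pyrimidines was 9 bases long in Rps26, Rps27 and Rps24, 11 in Rpl28, 18 in Rpl35 and 17 in Rpl15. It was 4, 3 and 3 bases long in Rps25, Rpl5 and Rps15. These lengths depend on the start used. The GENCODE genes begin at 44407139 for Rps25, 107900502 for Rpl5 and 80292453 for Rps15. The windows shown begin at 44407704, 107900518 and 80292421, and that of Rps15 ends at 80292450, before the GENCODE gene. The GENCODE genes of Rps26, Rps24, Rpl28, Rpl35 and Rpl15 also begin before the windows shown, that of Rps24 at 24487125. GENCODE starts were not searched, so the short runs do not show that a TOP motif is absent.

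Over the whole set of starts, from 20 bases before to 50 bases after the start, an unbroken run of at least 8 C or T on the transcript strand was found at 70.1% of the 67 ribosomal protein starts against 25.4% of all 32851 starts in the table. A run of G or A of that length, the same motif on the other strand, was found at 11.9% against 28.7%. The letters CTTTC occurred at 47.8% against 9.0% of all starts, and on the other strand (GAAAG) at 7.5% against 8.9%. CTTTC can lie inside a run of C and T, so these searches overlap. CCGGAAG, a core letter string of ETS factor motifs, was present on either strand of the 300 bases around 37.3% of the ribosomal protein starts against 8.9% of all. These are matches of letters and not sites of binding.

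Ribosomal protein mRNA made up 5468173 of the 25614763 UMIs, or 21.3%. A cell held a median of 589.5 such UMIs and a median share of 20.9%; 5% of cells lay below 13.9% and 5% above 29.3%, with extremes of 0.89% and 41.0%. The share computed here followed the authors' deposited percent.ribo column across cells (Pearson r = 0.997, with a median difference of 1.64 percentage points), and was weakly related to the depth of a cell (r = 0.21 with log2 UMIs over 8562 cells of 1 library, given as a description). Small subunit genes gave 45.4% of the ribosomal protein UMIs, large subunit genes 48.8%, the 3 stalk genes 4.7%, paralogs 0.996% and the copies with pseudogene names 0.0935%. Among all genes of the table, 52 members were in the 100 with the most UMIs and 10 in the first 20, and 61 of the 77 subunit genes had a UMI in over 90% of cells.

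Because each captured molecule gives 1 UMI at its 5′ end whatever its length, levels are set beside each other between genes without division by length; they are given here as raw CPM, the gene's UMIs scaled to the UMI total of the hashtag, as mean ± SD over the 8 hashtags. Among small subunit genes the highest were Rps24 (7663 ± 1024), whose protein is needed to mature the small subunit rRNA, Rpsa (7429 ± 810), the laminin receptor homologue that forms part of the mRNA exit site, and Rps15a (5722). The highest of the large subunit were Rpl19 (6297) and Rpl13 (6015). Rplp0, the stalk base that carries the P1 and P2 dimers, reached 7091 raw CPM, while Rplp1, 1 of those dimers' chains, had 32904 UMIs in all cells against 182165 of Rplp0. The lowest subunit genes were Rpl23a (173 ± 19.1) and Rps15 (208 ± 10.5), and Rpl5 (275) and Rps25 (330 ± 30.9) were also low, so the highest subunit gene exceeded the lowest by 44.0-fold in UMIs. These levels describe captured 5′ ends; protein was not measured.

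Gene copies touch some of these counts. Mammalian genomes hold many processed copies of ribosomal protein genes, and a read that fits 2 annotated genes equally is often not counted. With the first 200 bases of 1 annotated transcript per gene cut into windows of 60, 27 of the 77 subunit genes shared none with another annotated gene and 24 shared over 50%. Rps26 shared none, Rps24 56.7% and Rps27 97.2%, so the counts of Rps27 and, less so, of Rps24 are uncertain between copies. These windows come from GENCODE transcripts. The GENCODE gene of Rps26 begins at 128626747 on the minus strand, before the start shown above. For Rps26, sharing none thus covers the first 200 bases from the GENCODE start only, and copies of the rest were not searched. The median level was 2775 raw CPM for the genes that shared none and 2963 for those over 50%. Related genes also lay outside the name rule. Over whole transcripts, and not their starts alone, 62.8% of the windows of Gm10076, a gene named only by number, occurred in transcripts of the members, most of them in Rpl41, although the start of Rpl41 itself shared none with another gene. Gm10076 had 132256 UMIs (5157 ± 559 raw CPM) against 18083 for Rpl41, which encodes the shortest of the ribosomal proteins. With the other 6 such genes it took 0.529% of all UMIs.

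Most paralogs were rare beside their main copies, with 2 exceptions. Rpl22l1, the partner of the RNA-binding protein gene Rpl22, which is needed for the development of alpha-beta T cells, had 75.2, 74.5, 72.8 and 66.1 UMIs per 100 of Rpl22 in Cren 1 to 4 and 71.9, 67.9, 71.9 and 65.9 in Crep 1 to 4. Cren 1, Cren 2 and Cren 3 were above every Crep hashtag, and the groups overlapped only through Cren 4. This ratio was not tested. Rpl36al exceeded Rpl36a in 7 of 8 hashtags, at 136, 126, 150 and 87.1 UMIs per 100 of Rpl36a in Cren 1 to 4 and 139, 136, 151 and 124 in Crep 1 to 4. Cren 4 was the hashtag below 100. Rps27l, a p53-induced paralog, and Rps27rt each stood at 2.1 to 3.4 UMIs per 100 of Rps27, Rpl7l1, a nucleolar relative of Rpl7, at 3.0 to 4.2 per 100 of Rpl7, and Rpl39l, the testis form, had 17 UMIs in all against 70349 of Rpl39. Rpl3, Rpl10 and Rps4x were counted at 3398, 758 and 5372 raw CPM. The copies with pseudogene names ran from 24 UMIs (Rps12-ps3) and 25 (Rpl13a-ps1) to 2650 (Rpl9-ps6), and Rpl10-ps3 had 143. Rps19bp1, known as a regulator of SIRT1, had 575 UMIs. Shared sequence leaves some of these counts uncertain. Rps27rt, Rps12-ps3 and Rpl10-ps3 shared all of their start windows with other annotated genes. Rpl36a shared 55.3%, Rpl22l1 48.2% and Rpl36al 29.1%, while Rps27l, Rpl7l1 and Rpl39l shared none.

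The share of UMIs in the 90 genes was 21.7%, 21.3%, 20.7% and 25.9% in Cren 1 to 4 and 19.5%, 21.1%, 20.2% and 20.95% in Crep 1 to 4. Cren 4 was far above the other hashtags, and the remaining 3 Cren hashtags overlapped with Crep. The mean was 22.4% ± 2.38 in Cren and 20.4% ± 0.739 in Crep (SD, n = 4 each), and 21.2% ± 0.473 in Cren without Cren 4 (n = 3). The ratio of large subunit and stalk UMIs to small subunit UMIs was 1.17 ± 0.0297 in Cren and 1.18 ± 0.0157 in Crep. Cren 4 was the highest hashtag for 79 of the 87 members that passed the count filter of the test below, was above the mean of the other Cren hashtags for 84 of 87 with a median log2 difference of 0.27, and had the highest share in all 7 fine clusters in which it had at least 20 cells. It also had the largest part of its cells in fine cluster 1 (32.4%, against 5.5% to 19.2% in the other hashtags) and the highest mitochondrial share of UMIs (0.825%), with a median of 2766.5 UMIs per cell; the part of these in its share was not tested.

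**Figure D1:**
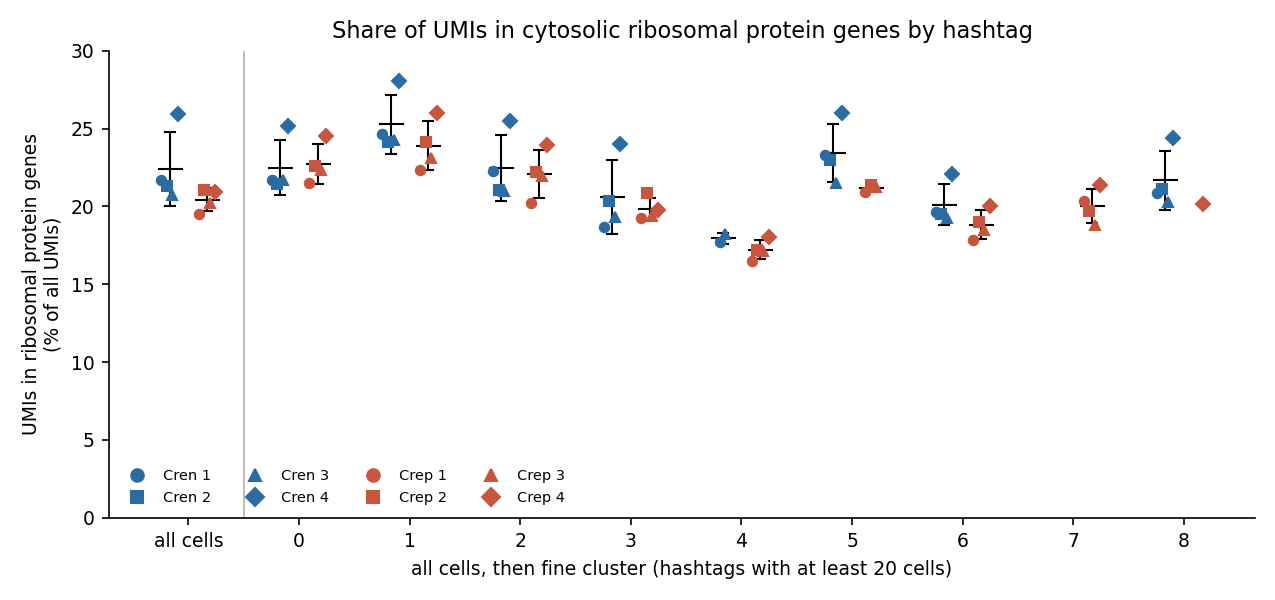
Share of all UMIs that fell in the 90 ribosomal protein genes (vertical axis, percent) per hashtag, over all cells and within fine clusters 0 to 8 for hashtags with at least 20 cells; points are hashtags, the cross bars mean ± SD of each group. Cren 4 (blue diamonds) is at 25.9% over all cells and above the other hashtags in each cluster in which it is drawn, and cluster 1 is the highest and cluster 4 the lowest cluster.

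Between the groups over all cells, no ribosomal protein gene passed the test in either direction. Of the 87 members with enough counts (Rpl39l, Rps12-ps3 and Rpl13a-ps1 had too few), edgeR's quasi-likelihood test called 0 at an adjusted p below 0.05, where 0.611% of the 9653 genes tested were called (0.342% higher and 0.269% lower in Crep); 11 members had an unadjusted p below 0.05 (11.1% of all genes did), DESeq2 called 1 and limma-voom 0. The fitted changes lay to 1 side: 82 of 87 were negative, lower in Crep, where 50.1% of all genes were and 49.9% were positive, with a median log2 fold change of -0.13 against -0.0006 over all genes. Without Cren 4, 67 of 87 were negative and the median was -0.05. With the cluster mix held fixed, 74 were negative with a median of -0.06. That fit gave equal weight to the 5 clusters in which every hashtag had at least 20 cells (0, 1, 2, 3 and 6). All other clusters, among them 4, 5, 7 and 8, were left out of it. The members were counted in the same 8 hashtags, so these counts are a description and no test of the family. In 7 members the 4 Crep hashtags lay below all 4 Cren hashtags, and in 0 above them, while 3.26% of all genes did the former and 3.44% the latter, 6.7% in all.

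By role, all 31 small subunit genes had a negative fold change (median -0.14, from -0.38 to -0.02), as did 42 of 43 large subunit genes (median -0.12, from -0.25 to 0.04) and the 3 stalk genes (-0.25 to -0.12). Of the 5 tested paralogs 4 were negative, and of the 4 tested copies with pseudogene names 2 were. Over all genes tested 50.1% were negative. These counts rest in part on Cren 4: without it 67 of the 87 members were negative, and the counts by role are not given without it. The largest fold changes upward were those of Rps19bp1 (0.24, SE 0.136, edgeR adjusted p = 0.550) and Rps27l (0.13, SE 0.0847, adjusted p = 0.615), followed by Rpl7a-ps5 (0.08), Rpl13a (0.04), a large subunit protein also known as a translational silencer, and Rpl10-ps3 (0.01). None of these 5 passed the test, and the sign of Rpl10-ps3 and Rps27l depended on the processing.

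**Figure D2:**
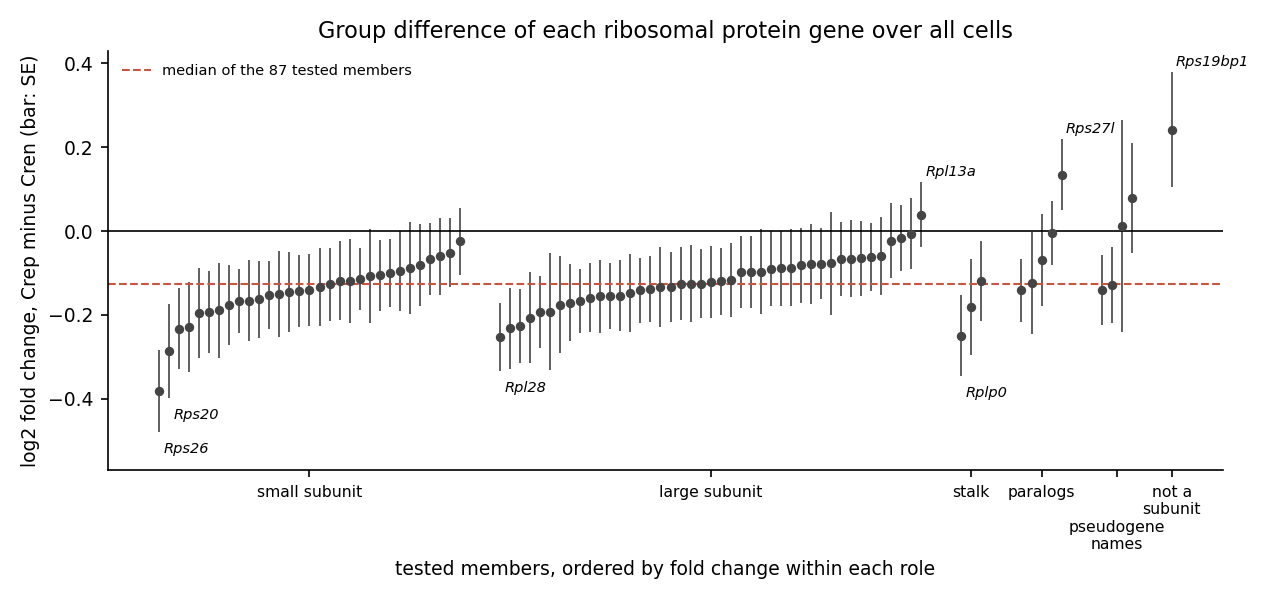
Log2 fold change, Crep minus Cren, of the 87 tested ribosomal protein genes over all cells, ordered within each role; bars are standard errors from the edgeR fit and the dashed line is the median of -0.13. All small subunit and stalk genes and 42 of 43 large subunit genes lie below 0, Rps26 lowest at -0.38; no gene passed the adjusted threshold.

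Rps26, whose protein lines the mRNA exit channel and can leave the assembled ribosome, had the lowest p of the family. Its level, in CPM scaled by the TMM method, as are all CPM values not called raw, was 2358, 2179, 2038 and 2816 in Cren 1 to 4 and 1707, 1946, 1783 and 1771 in Crep 1 to 4. Cren 4 was the highest hashtag and Cren 3 the nearest to Crep, and no Crep hashtag reached any Cren hashtag. The mean was 2348 ± 339 against 1802 ± 102 (SD, n = 4 each). The log2 fold change was -0.38 (SE 0.0972, edgeR adjusted p = 0.0947), which did not pass. Over the 18 settings tried, the adjusted p ranged from 0.0343 to 0.238 and the fold change from -0.44 to -0.28; it passed with DESeq2 (0.0343) and without Cren 3 (0.0363), and was -0.28 without Cren 4. Taken as a part of the ribosomal protein UMIs, which sets aside the level of the family as a whole, Rps26 was 1.09%, 1.03%, 0.974% and 1.07% in Cren 1 to 4 and 0.891%, 0.903%, 0.869% and 0.844% in Crep 1 to 4. On this scale Cren 4 no longer stood out and the groups again did not overlap (1.04% ± 0.0516 against 0.877% ± 0.0259, SD, n = 4 each). Nor did they overlap for Rps20 (1.93% in Cren against 1.74% in Crep) and Rpl15 (0.888% against 0.830%), with Crep below. Crep was above Cren without overlap for Rpl38 (0.657% against 0.687%), Rpl13a (0.377% against 0.421%) and Rps27l (0.0342% against 0.0407%). The groups overlapped for every other member on this scale. These parts of the family total were not tested. In CPM over all cells, 6.7% of the 9653 genes tested had groups that did not overlap. That share was not computed for parts of a total.

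Rpl28, a large subunit protein, had the second lowest p over all cells, at 1527, 1347, 1358 and 1587 CPM in Cren 1 to 4 and 1208, 1287, 1241 and 1151 CPM in Crep 1 to 4. All Crep hashtags were below all Cren hashtags (log2 fold change -0.25, SE 0.0811, edgeR adjusted p = 0.214). Rplp0 was at 7961, 6841, 7230 and 8919 CPM against 6051, 6857, 6976 and 6150 CPM, with Crep 2 and Crep 3 above Cren 2 (-0.25, SE 0.0962, adjusted p = 0.318). For Rps20, which sits in the small subunit head, the values were 4189, 3925, 3752 and 5617 CPM against 3361, 3806, 3574 and 3601 CPM, so that Crep 2 overlapped with Cren 3 (-0.29, SE 0.112, adjusted p = 0.334). Without Cren 4 the fold change of Rps20 was -0.14.

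Within fine clusters of the authors' annotation, Rps26 was the ribosomal protein gene that passed. Clusters 0, 1, 2, 3, 5 and 6 could be tested, 20 cells being the minimum per hashtag and 3 hashtags the minimum per group. In cluster 0, the largest with 1321 cells, Rps26 was at 2814, 2733, 2264 and 3116 CPM in Cren 1 to 4 and at 1941, 2070, 2003 and 2417 CPM in Crep 1 to 4. Crep 4 exceeded Cren 3, and the other Crep hashtags were below all Cren. Rps26 was lower in Crep by the test (log2 fold change -0.38, SE 0.0982, edgeR adjusted p = 0.0405), 1 of 86 members, where 0.98% of 5409 genes were called and 0.481% were lower. In cluster 5, led by Tnfrsf25, Ifitm1 and Tnfsf8, Rps26 was at 2964, 2827, 2322 and 3416 CPM in Cren 1 to 4 and at 2062, 2250 and 2076 CPM in Crep 1 to 3; Crep 4 had too few cells and was left out. The groups did not overlap (-0.44, SE 0.106, adjusted p = 0.0140), and Rps26 was again 1 of 84 members called, against 1.19% of 4044 genes, 0.668% of them lower. Both calls depended on the hashtags present: the adjusted p reached 0.256 in cluster 0 and 0.164 in cluster 5 when 1 hashtag was left out, and both held without Cren 4. The call was lost in cluster 0 without Cren 1, Cren 2, Crep 1, Crep 2 or Crep 3.

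In the other 4 clusters 0 members passed, with 0.173% of genes called in cluster 1, 0.28% in cluster 2, 0 genes in cluster 3 and 0.0269% in cluster 6; 1, 4, 3 and 11 members there had an unadjusted p below 0.05, where 6.45%, 6.13%, 5.74% and 5.71% of all genes did. DESeq2 and limma-voom were not run within clusters. Rps26 had a negative fold change in all 6 clusters, at -0.17 in cluster 1, -0.30 in cluster 2, -0.33 in cluster 3 and -0.29 in cluster 6. The family as a whole did not have 1 direction across clusters. In cluster 0, 54 of 86 members were positive (median 0.02), whereas 77 of 85 were negative in cluster 1 (median -0.09), 60 of 86 in cluster 2, 62 of 84 in cluster 3, 75 of 84 in cluster 5 (median -0.15) and 76 of 84 in cluster 6 (median -0.11). Over all genes tested in a cluster, the median log2 fold change lay between -0.02 (cluster 6) and -0.003 (clusters 0 and 3). The counts and medians of the members are not given without Cren 4. In cluster 5, 23 of 84 members had an unadjusted p below 0.05, where 10.3% of all genes did. Leaving out Cren 3 in cluster 5 raised the members called from 1 to 13, all lower in Crep, and leaving out Cren 1, Crep 1, Crep 2 or Crep 3 brought it to 0.

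**Figure D3:**
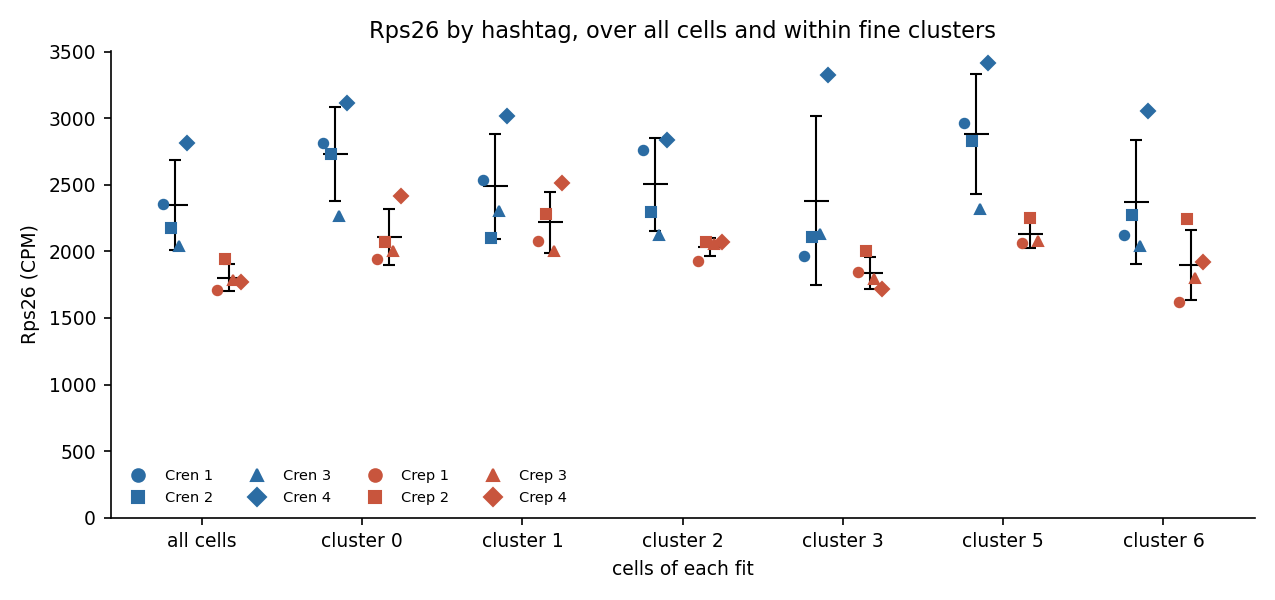
Rps26 in TMM-scaled CPM per hashtag over all cells and within the 6 tested fine clusters; points are hashtags and cross bars mean ± SD of each group. Over all cells Crep lies between 1707 and 1946 and Cren between 2038 and 2816 CPM; Cren 4 is the highest hashtag in every cluster, and cluster 5 has no Crep 4.

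Several measures moved with the groups beside these genes. The mitochondrial share of UMIs was 0.767% ± 0.0448 in Cren and 0.668% ± 0.0207 in Crep (SD, n = 4 each) without overlap. The 7 cytotoxic-like markers summed to 1849 to 6083 raw CPM in Cren and 6516 to 11086 in Crep, and the 7 stem-like markers to 350 to 505 in Cren and 177 to 267 in Crep. Gzma and Gzmb gave most of the cytotoxic-like sum. Taken singly, Gzmb, Prf1 and Klrg1 did not overlap between the groups, while Gzma, Gzmk, Cx3cr1 and Zeb2 did. Fine cluster 1, with the highest share of ribosomal protein UMIs, held 19.2% ± 9.75 of the cells of a Cren hashtag and 8.90% ± 4.12 of a Crep hashtag, and cluster 4, with the lowest, 4.58% ± 4.02 and 18.1% ± 10.5. With the mix of clusters 0, 1, 2, 3 and 6 held fixed, the fold change of Rps26 was -0.30 with an adjusted p of 0.238 in limma. Cluster 4 and cluster 5 were not in that fit, so it does not adjust for the difference in cluster 4.

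The group difference itself was tested for a difference between the 2 largest clusters, with the hashtag as a block. The result is Crep minus Cren in cluster 1 (led by Trbv17, Dnajb1 and Hspa1a) less the same in cluster 0 (led by Trav8n-2, Trav4-4-dv10 and Itgae). Rps27 and Rps24 passed, both with a negative difference, 2 of 86 members where 0.132% of 6080 genes were called, 0.115% with a negative difference. Of the 86 members 75 had a negative difference (median -0.11), where 50.8% of all genes did, a count over the same 8 hashtags that is a description. An unadjusted p below 0.05 was found for 31, where 6.37% of all genes did, and in 20 the ratio of cluster 1 to cluster 0 was lower in every Crep hashtag than in every Cren hashtag, where 2.11% of genes had such a ratio and 1.46% the opposite.

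Rps27, a zinc finger protein of the small subunit known as metallopanstimulin, had a CPM in cluster 1 that was 1.43, 1.503, 1.29 and 1.40 times that in cluster 0 in Cren 1 to 4 and 1.17, 1.15, 1.08 and 1.11 times in Crep 1 to 4. Every hashtag was above 1 and no Crep hashtag reached a Cren hashtag (1.40 ± 0.0903 against 1.13 ± 0.0404, SD, n = 4 each; log2 difference -0.32, SE 0.0661, edgeR adjusted p = 0.0196). In CPM, Rps27 in cluster 0 was 2466 to 3355 in Cren and 2975 to 3730 in Crep, and in cluster 1 it was 3522 to 4706 in Cren and 3334 to 4144 in Crep. The ratio for Rps24 was 1.26, 1.24, 1.27 and 1.19 in Cren 1 to 4 and 1.05, 1.08, 1.01 and 1.12 in Crep 1 to 4, again without overlap (1.24 ± 0.0347 against 1.06 ± 0.0468; log2 difference -0.23, SE 0.0532, adjusted p = 0.0488). Neither gene differed by the test over all cells, at -0.09 for Rps27 and -0.11 for Rps24. With 1 hashtag left out at a time, Rps27 stayed past the threshold in 6 of 8 fits and was lost without Cren 2 (adjusted p = 0.0836) and without Crep 3 (0.118), while Rps24 held in only 2 fits, without Cren 4 and without Crep 4, with a highest adjusted p of 0.301. Rps26 went the other way, its ratio being 0.928, 0.789, 1.04 and 0.993 in Cren 1 to 4 and 1.10, 1.13, 1.04 and 1.08 in Crep 1 to 4, where Crep 3 overlapped with Cren 3 (log2 difference 0.21, SE 0.0759, adjusted p = 0.569).

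**Figure D4:**
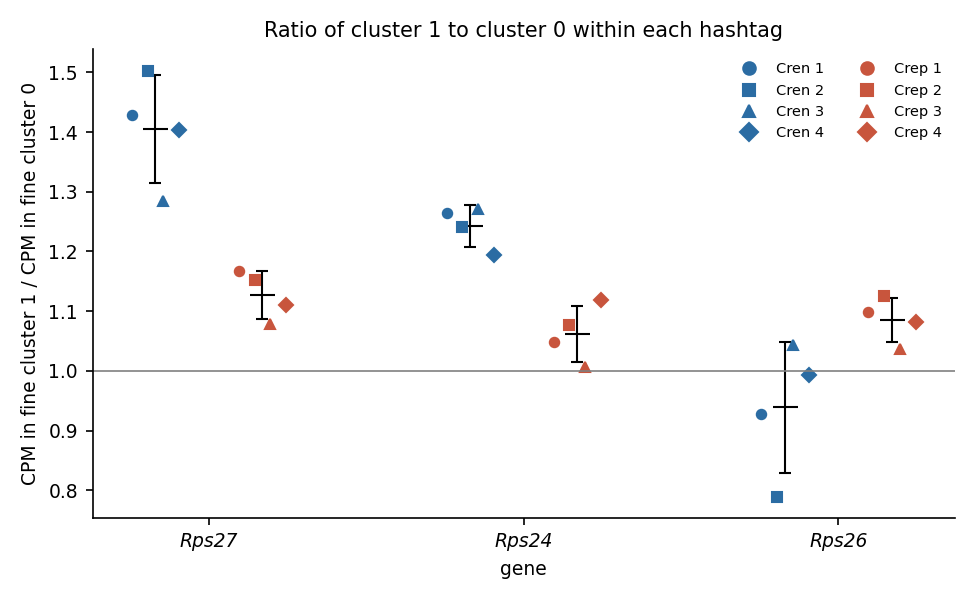
Ratio of the CPM in fine cluster 1 to that in fine cluster 0 for Rps27, Rps24 and Rps26 within each hashtag; points are hashtags and cross bars mean ± SD of each group, and the vertical axis does not start at 0. For Rps27 the Cren hashtags lie at 1.29 to 1.503 and the Crep hashtags at 1.08 to 1.17.

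The clusters themselves differed in how much ribosomal protein mRNA they carried; since they were made from these cells and genes, their values are a description. Over hashtags with at least 20 cells, the share was highest in cluster 1 (24.6% ± 1.77, SD, n = 8) and lowest in cluster 4 (17.5% ± 0.631, n = 6), which was led by S1pr5, Cx3cr1 and Klra3 and held Klrg1 and Gzma, genes of circulating cytotoxic cells, among its 10 leading genes. Clusters 0, 5, 2 and 8 stood at 22.6%, 22.5%, 22.3% and 21.4% and clusters 3, 7 and 6 at 20.2%, 20.05% and 19.5%, neighbours that lay within 1 SD of each other. The order held inside hashtags: cluster 1 was the highest in 8 of 8 hashtags, and cluster 4 the lowest in 6 of the 6 that had it. Cren 4 had too few cells for cluster 4, and without it the mean of cluster 1 was 24.1%. Cells thinned to 1500 UMIs gave 24.6% for cluster 1 and 17.4% for cluster 4.

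All 77 subunit genes had a higher mean CPM in cluster 1 than in cluster 4, by a median of 1.40-fold; 63 were highest in cluster 1 and 66 lowest in cluster 4 among clusters 0 to 8. The widest gap was that of Rpl12 (706 against 362 raw CPM, 1.95-fold), a protein of the stalk base, then Rpl36a (888 against 477) and Rps20 (4801 against 2773). No member was among the 10 leading genes of any cluster. The large to small subunit ratio was 1.23 ± 0.0167 in cluster 4 and 1.15 ± 0.0250 in cluster 2, the highest and the lowest of these 9 clusters.

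Cluster 9 had little ribosomal protein mRNA, 10.7% of the UMIs of its 119 cells. Its share was 12.7%, 8.37%, 9.93% and 14.1% in Cren 1 to 4 and 8.91%, 10.4%, 10.4% and 10.1% in Crep 1 to 4, from 12 to 19 cells each. All 8 hashtags were below every hashtag value of clusters 0 to 8. The cells of cluster 9 had a median of 1007 UMIs, against 2764.5 over all cells, and were led by Adamts6, Gm26917 and Gm21992; the part of their depth in this share was not tested. Cluster 10, of which 97.3% came from Cren 3, stood at 19.1%.

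In cluster 11 the make-up of the family differed rather than its size. Its 73 cells had 22.1% of their UMIs in the 90 genes and a median of 4081 UMIs per cell, and were led by Penk, Ccl1 and Xcl1, with Tnfrsf9, a receptor induced by antigen, among the leading genes. Each subunit gene was taken as a percent of the ribosomal protein UMIs, in cluster 11 and in the other cells of the same hashtags. Rpl5 took 0.281% against 0.126%, or 2.23 times as much, Rps25 2.04 times, Rps15 1.78 times, Rpl23a 1.68 times, Rps26 1.67 times (1.60% against 0.961%) and Rps12 1.64 times. Rpl5, Rps25, Rps26 and Rps12 were above 1 in each of the 8 hashtags, with ranges of 1.64 to 2.98 for Rpl5 and 1.23 to 1.95 for Rps26. In Rps15 and Rpl23a 1 hashtag was below 1. RPL5 with its partner RPL11 binds MDM2 when ribosome assembly fails, and RPS25 serves internal ribosome entry. Rps27 (0.699 times) and Rps24 (0.799) were lower in each of the 8 hashtags.

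Of the genes raised here, Rpl23a, Rps15, Rpl5 and Rps25 were among the least abundant subunit genes over all cells. Over the 77 subunit genes the median ratio was 1.04, with 10 above 1 in all 8 hashtags and 9 below 1 in all 8. Hashtags held 2 to 28 cells of the cluster each, and Rpl5 rested on 199 UMIs there, Rps15 on 122 and Rps26 on 1133. Rps12 shared all and Rpl23a most of its start windows with other annotated genes, while Rps26, Rps25 and Rps15 shared none. Those windows follow GENCODE transcripts, and the GENCODE genes of Rps26 and Rps25 begin before the starts shown above. Sharing none therefore does not clear their counts of copies. Rack1, the scaffold protein of the small subunit head that the name rule leaves out, was likewise at 1.66 times, while Fau (0.710), made as a fusion to a ubiquitin-like sequence, was lower; Rps27a, a ubiquitin fusion, was at 1.21 times. Over clusters 0 to 8 the part of the median gene ranged over 0.21 on the log2 scale, and the widest range was 0.68, that of Rpl10. Those ranges come from hashtag means in larger clusters, while the ratios of cluster 11 were pooled from few cells. The 2 measures are therefore not alike, and whether the make-up varied less outside cluster 11 was not tested.

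**Figure D5:**
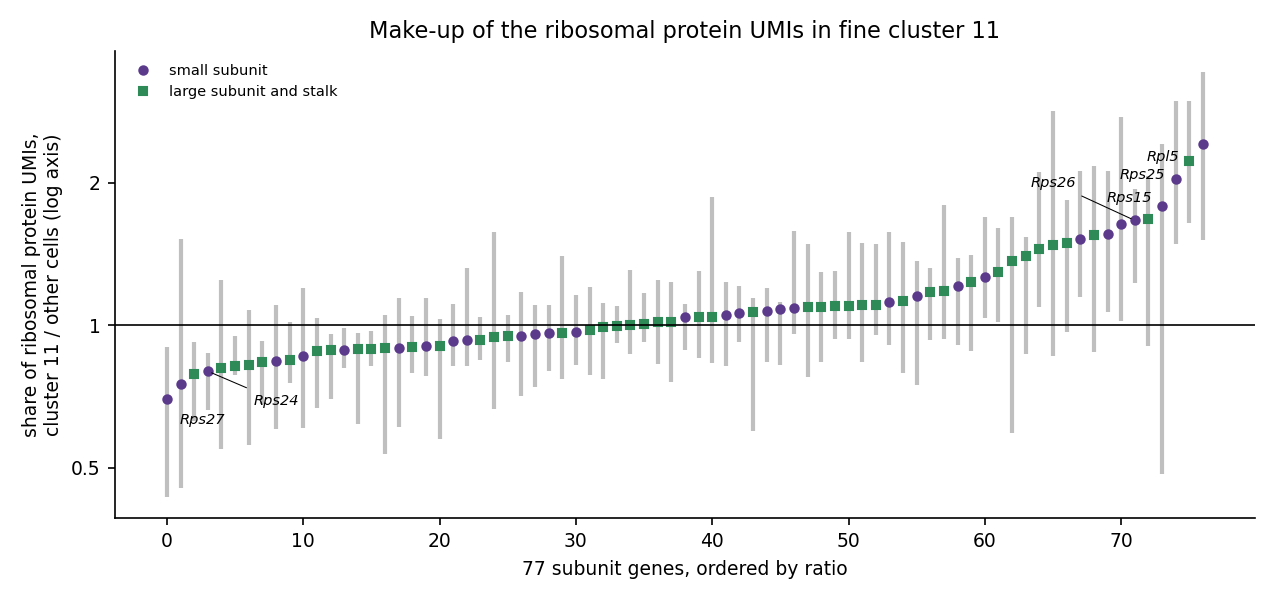
Percent of ribosomal protein UMIs taken by each of the 77 subunit genes in fine cluster 11, divided by that in the other cells of the same hashtags (log axis); points are the pooled ratio, grey bars the range over the 8 hashtags. Rpl5 and Rps25 lie above 2, and Rps27 is the lowest at 0.699.

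Among 2748 other genes with at least 50 raw CPM, those whose level followed the ribosomal protein share most closely over clusters 0 to 8 were Npm1 (Pearson r = 0.94), a nucleolar chaperone of ribosome assembly, Fbl (0.94), the rRNA methyltransferase, Tpt1 (0.93) and Eef1b2 (0.92), both TOP mRNAs, Mif (0.91) and Gm10076 (0.89). Npm1 was at 1213 raw CPM in cluster 1 and 823 in cluster 4, and Fbl at 83.1 and 45.7. Lowest were Dda1 (-0.93), Cyth4 (-0.92), H2-Q7 (-0.92), Ifi35 (-0.91), Azi2 (-0.90) and Osbpl3 (-0.90), with H2-Q7, a nonclassical MHC gene, at 425 in cluster 1 and 647 in cluster 4. These r values are over 9 clusters of 1 library that share its depth, and describe it.

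Other genes of translation were read from fixed lists, and 0 members of any list passed the edgeR test over all cells in either direction. Beside the unadjusted counts below, 11.1% of all genes had an unadjusted p below 0.05 in that test. Of 20 elongation factors and other TOP mRNAs 18 had a negative fold change (median -0.07, 1 with an unadjusted p below 0.05), led by Hnrnpa1 (-0.27, SE 0.0904), Naca (-0.15), Eif3h (-0.14) and Npm1 (-0.16). Of 55 ribosome biogenesis genes 37 were negative (median -0.06, 4 unadjusted), with Ddx21, a nucleolar helicase, at -0.30 and Fbl at -0.30 but Bysl, a small subunit assembly factor, at 0.42. The 78 mitochondrial ribosomal proteins, which serve the organelle's own ribosome, had 41 positive fold changes and a median of 0.003 (6 unadjusted), with Mrps6 at -0.38 and Mrpl40 at 0.21. Translation initiation factors were negative in 20 of 31 (median -0.06, 1 unadjusted), Eif3a at -0.18. The mTORC1 and TOP regulators had 21 of 36 negative (median -0.004, 4 unadjusted), with the Ragulator subunit Lamtor4 at 0.27 and Max at -0.30. Ribosome quality control genes had 9 of 18 negative (2 unadjusted) and p53 targets 10 of 15 (median -0.07, 1 unadjusted). Fau and Rack1 were negative, at -0.05 and -0.09, neither with an unadjusted p below 0.05. No list of these, at 50.1% negative over all genes, had a median as low as the -0.13 of the 87 ribosomal protein genes with all 8 hashtags. Without Cren 4 the median of the ribosomal protein genes was -0.05, and the medians of the lists are not given without it. The difference between lists was not tested.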

How the data were processed

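CD8 T cells were measured as 1 pooled 5′ library with hashtags. Deposited values were unnormalized UMI counts of each gene in each cell. The authors' annotation gave percent.ribo and percent.mt (percent of UMIs), hashtag, group and 12 fine clusters; deposited score columns such as UMAP were not used. Per the submitters' processing notes, the tools were Seurat 4.3.0, Cell Ranger 7.0.0 and bcl2fastq 2.20.0.422, and the build mm10, with no role given. In the deposited cells the fewest genes were 500 and the highest mitochondrial share 3.0%; no doublet caller was run, and 115 cells lacked agreement of both hashtag classifiers.

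Counts were summed per hashtag, for all cells and per cluster (at least 20 cells), and tested over all genes in edgeR 4.0.16 (quasi-likelihood, TMM, filterByExpr, robust), Crep minus Cren, Benjamini-Hochberg at 0.05. DESeq2 1.42.0 and limma 3.58.1 were alternatives. Scripts were tested on simulated data. Errors are SD over hashtags, SE for log2 fold changes. Genes were named by role, by lowest p, by extreme levels and fold changes, by cluster make-up, as paralogs, or by likeness over clusters; Rpl12, Rpl15, Rpl35, Rps12, Rpl21, Rpl38, Rplp1 and Rpl41 were chosen after their values were seen, and some genes under the rule are not reported here. R 4.3.3 and Python 3.11.15 were used. Members and lists were chosen with earlier results of these data known.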

Additional observations from a re-analysis of the deposited data

Results flagged for a closer look

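Within the Cren group, the share of UMIs in ribosomal protein genes in Cren 4 lay apart from the other 3 hashtags in 3 fine clusters, its gap to the nearest being large against the range of the group. It was 25.1% in cluster 0 (others 21.4% to 21.7%), 28.1% in cluster 1 (others 24.1% to 24.6%) and 22.1% in cluster 6 (others 19.2% to 19.6%). In all, 38 groups of hashtags were examined this way, and chance flags about 1 in 20 groups.

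The group effect differed between fine clusters 1 and 0 by the interaction test for Rps27, at -0.32 on the log2 scale, and for Rps24, at -0.23.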

How the results depend on the processing

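Over all cells the 0 calls among the members became 1 (Rps26, lower in Crep) with DESeq2 and 0 to 1 when 1 hashtag was left out, and were 0 with edgeR RLE factors, totals of other genes, no count filter, limma-voom, agreed cells, a fixed cluster mix and without the clusters mostly of 1 hashtag. In cluster 0 the count of 1 ranged from 0 to 1 and in cluster 5 from 0 to 13 with 1 hashtag left out; with cells agreed by both classifiers it was 2 in cluster 5 (Rps26 and Rpl15). The 2 calls for the difference between clusters ranged from 0 to 4 (Rps27, Rps24, Rps4x and Rpl21 without Crep 4), in fits added after seeing the data, as was counting the 7 further genes that share sequence with members, which gave shares of 23.0% in Cren and 20.9% in Crep. Fold changes turned negative for Rpl10-ps3 with limma-voom (-0.00795), with the replicate block (-0.0114) and with 1 hashtag left out (-0.19 to 0.13, negative without Cren 1, Cren 3 or Crep 2), and for Rps27l with the cluster mix held fixed (-0.0250); the cause was not tested. Shares moved by less than 1 SD in both groups and in clusters 0 to 8 under the alternatives run. Clusters 9 to 11 had too few hashtags with at least 20 cells for an SD. The replicate numbers were not taken to pair the hashtags, since pairing was to need every same-number correlation of deviations above 0.1 and number 1 gave -0.04. Numbers 2, 3 and 4 gave 0.14, 0.18 and 0.12, against highest values with another number of 0.21, 0.01 and 0.01 (0.11 for number 1), a hint of pairing for 3 and 4. With the replicate block edgeR called 103 of 9653 genes against 59 without it, and 0 members in either. DESeq2 called 145 of 11796, limma-voom 37, a fixed mix 14 and the fits without 1 hashtag 14 to 121 genes. The small clusters 9 to 11 were limited by their 73 to 119 cells.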
